A study of Homo sapiens with 11 samples.

Results

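The replication-dependent histone genes supply the histone proteins that package newly made DNA. They were taken as all entries of the expression tables whose symbol starts with HIST1H, HIST2H, HIST3H or HIST4H, which gave 71 of 23287 genes. By class these are 6 linker (H1) genes, 17 H2A genes, 20 H2B genes, 13 H3 genes and 15 H4 genes. The HIST1 cluster on chromosome 6 holds 56 of them, HIST2 and HIST3 on chromosome 1 hold 11 and 3, and HIST4H4 lies on chromosome 12.

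RNA was sequenced from the human embryonic stem cell lines H1 and H7 in 11 libraries, each the only one of its group. Of these, 9 came from cells infected with a lentivirus for 5 days, carrying an shRNA labelled pCCNE1, an shRNA labelled uCCNE1 or a control shRNA, in H7 cells in the naive medium 5iLA, in H1 cells in the naive medium t2iGo and in primed H1 cells. The remaining 2 came from H7 cells without a virus, in 5iLA medium and primed, and they stand in a table of their own that was treated as normalised separately. Beside the name of a culture, H1 is the cell line, and elsewhere it is the linker histone class. The pCCNE1 form is known as a primate-specific splice form of CCNE1, the cyclin E1 gene, and a gene-level value sums its splice forms. No label ties a library to a replicate culture or says that libraries were pooled, so a p-value here reflects only how far these libraries scatter, part of which may be technical.

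The values are RPKM, reads scaled by transcript length and by the mapped reads of the library, so that levels can be compared between genes. Depth estimated from the RPKM value of 1 read ran from 6.43 to 25.7 M reads (M for mega), and 1 read on a transcript of 0.5 kb stood for 0.0779 to 0.311 RPKM. CCNE1, the gene the hairpins are named for, was at 8.38, 5.27 and 14.1 RPKM in 5iLA H7 with the pCCNE1, uCCNE1 and control shRNAs, at 5.25, 5.38 and 9.65 RPKM in t2iGo H1 and at 10.5, 6.75 and 12.0 RPKM in primed H1. It was below control in each of the 6 libraries with a CCNE1 hairpin. The summed level of 7 markers of naive cells was 456 to 814 RPKM in the 5iLA libraries, 1.99 to 2.59 in the t2iGo libraries and 1.79 to 3.26 in the primed H1 libraries. The t2iGo libraries were therefore not marked as naive by this list: the naive marker DPPA5 was at 0, 0 and 0.138 RPKM there, and they are called by their medium. Small non-coding RNAs took 12.9 to 24.4% of summed RPKM in the 5iLA libraries, 13.1 to 16.7% in the t2iGo libraries and 0.212 to 0.516% in the primed H1 libraries. The sample descriptions of the primed H1 libraries also follow another naming scheme than those of the other 8, so a difference of primed H1 from other cultures cannot be told apart from one of library preparation.

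Histone genes of this family are switched on when a cell enters S phase. Cyclin E with CDK2 phosphorylates NPAT, a coactivator that sits at the histone gene clusters, and the octamer factor POU2F1 acts on H2B genes. Their messages lack introns, and most end in a conserved stem-loop in place of a poly(A) tail. SLBP binds the stem-loop, the U7 snRNP guides the cut just downstream of it, which CPSF3 makes, and the stem-loop also serves the decay of the message when replication ends. A few members also give polyadenylated messages, and replacement histones such as H3F3B and H2AFZ are made outside S phase from polyadenylated messages.

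The stem-loop is the feature that sets these messages apart, so its sequences are shown. A search of protein-coding GENCODE transcripts found it in 29 members, in 5 forms, printed as DNA with the stem in capitals. The search asked for 6 paired bases, with G-T pairs allowed, around a loop of 4 bases. It also required GG at the start, TT at the opening of the loop and CC at the end. The forms share these letters because the search fixed them. In 11 of the 29 members it lay within 100 bases of the end of the transcript model. In others the model ran on well past it, by 1059 bases for HIST1H2BG and 1640 for HIST1H2BH. The remaining members had no match to this pattern, which says nothing of the messages themselves.
H2A, H2B and H3 form, 15 members including HIST1H2BG and HIST1H2BH: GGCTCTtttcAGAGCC
H4 form, 5 members including HIST1H4E and HIST1H4H: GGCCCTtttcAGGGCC
H2B and H3 form, 5 members including HIST1H2BD and HIST1H3G: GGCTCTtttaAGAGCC
H4 form with another loop, 3 members, HIST1H4I, HIST2H4A and HIST2H4B: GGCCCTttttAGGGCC
H2A form, 1 member, HIST1H2AG: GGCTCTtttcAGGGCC

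RefSeq promoters of 300 bases (250 before to 50 after the start, GRCh38.p14) were found for 63 members. Where a gene has several starts, their windows were searched together, so each count is of genes with a match in any window. The octamer ATTTGCAT, searched on both strands, was in 14 of 18 H2B promoters, 11 of 15 H2A promoters, 1 of 11 H3 promoters, 0 of 6 linker and 0 of 13 H4 promoters, against 2.19% of 27305 genes. H2A and H2B genes often lie head to head and then share a promoter window. CCAAT, the site of NF-Y, was in all linker, H2A, H2B and H3 promoters found and in 3 of 13 H4 promoters, against 39.7% of all genes. TATAAA, the core of the TATA box, was in 42 of 63 member promoters, against 13.99% of all genes. Promoters are shown for HIST1H1A, HIST1H2BB and HIST1H3C, whose levels set them apart from the other members in the cultures below, each with a member of its own class that did not share that pattern. Each run gives the 200 bases before the start, from RefSeq on GRCh38.p14, with the octamer, CCAAT and TATAAA in capitals on either strand (CCAAT reads ATTGG on the other one).
HIST1H1A (chr6:26017788-26017987, minus strand): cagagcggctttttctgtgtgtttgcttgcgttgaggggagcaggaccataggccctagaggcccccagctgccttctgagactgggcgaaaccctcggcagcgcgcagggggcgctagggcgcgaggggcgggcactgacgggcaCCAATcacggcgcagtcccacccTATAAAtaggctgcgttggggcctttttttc
HIST1H1D (chr6:26234988-26235187, minus strand): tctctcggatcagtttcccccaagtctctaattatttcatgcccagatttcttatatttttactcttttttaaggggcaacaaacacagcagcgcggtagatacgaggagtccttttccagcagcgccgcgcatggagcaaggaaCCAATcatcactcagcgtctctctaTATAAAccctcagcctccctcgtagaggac
HIST1H2BB (chr6:26043714-26043913, minus strand): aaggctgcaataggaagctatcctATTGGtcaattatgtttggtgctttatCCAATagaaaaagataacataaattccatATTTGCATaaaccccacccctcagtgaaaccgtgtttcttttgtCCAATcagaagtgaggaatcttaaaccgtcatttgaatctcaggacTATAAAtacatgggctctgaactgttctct
HIST1H2BG (chr6:26216689-26216888, minus strand): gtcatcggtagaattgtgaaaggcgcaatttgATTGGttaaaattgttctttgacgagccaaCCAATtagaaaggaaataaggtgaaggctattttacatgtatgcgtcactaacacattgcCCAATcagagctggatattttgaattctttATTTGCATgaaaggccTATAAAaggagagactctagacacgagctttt
HIST1H3C (chr6:26045184-26045383, plus strand): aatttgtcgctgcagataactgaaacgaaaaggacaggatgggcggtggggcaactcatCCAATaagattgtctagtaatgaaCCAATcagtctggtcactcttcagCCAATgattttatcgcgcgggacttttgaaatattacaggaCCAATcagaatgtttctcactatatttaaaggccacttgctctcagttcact
HIST1H3B (chr6:26032100-26032299, minus strand): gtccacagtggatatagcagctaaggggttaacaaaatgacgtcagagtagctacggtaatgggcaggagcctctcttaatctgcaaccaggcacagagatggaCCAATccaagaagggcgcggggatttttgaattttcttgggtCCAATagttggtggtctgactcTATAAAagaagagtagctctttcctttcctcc

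TATAAA began 31 bases before the start in HIST1H1A, 30 in HIST1H1D, 30 in HIST1H2BB, 32 in HIST1H2BG and 32 in HIST1H3B, and these letters were not in the window shown of HIST1H3C. The octamer began 120 bases before the start of HIST1H2BB and 48 bases before that of HIST1H2BG. Both H2B promoters held CCAAT at 3 places, HIST1H3C at 4 and HIST1H3B at 2.

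Histone RNA was high in 8 libraries and close to 0 in the 3 primed H1 libraries. The members' summed level was 3147, 1342 and 3025 RPKM in 5iLA H7 with the pCCNE1, uCCNE1 and control shRNAs, 1494, 1865 and 3854 RPKM in t2iGo H1 and 35.4, 71.8 and 61.6 RPKM in primed H1. In the untreated table it was 3086 RPKM in 5iLA H7 and 5192 RPKM in primed H7. All 3 primed H1 libraries were thus far below every other library, and the untreated primed H7 library was not among the low ones. As a share of summed RPKM, members took 0.964 to 2.24% in the 5iLA libraries, 0.902 to 2.08% in the t2iGo libraries and 0.0104 to 0.0208% in the primed H1 libraries. The median member stood at 17.0 to 36.7, 15.6 to 48.6 and 0.204 to 0.498 RPKM in the same cultures. Of the 71 members, 62 to 65 reached 1 RPKM in 5iLA H7, 59 to 61 in the t2iGo libraries and 10 to 21 in the primed H1 libraries, where 15 to 20 were listed at 0. In bulk RNA, fewer cells in S phase and less histone RNA in each cannot be told apart.

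**Figure D1:**
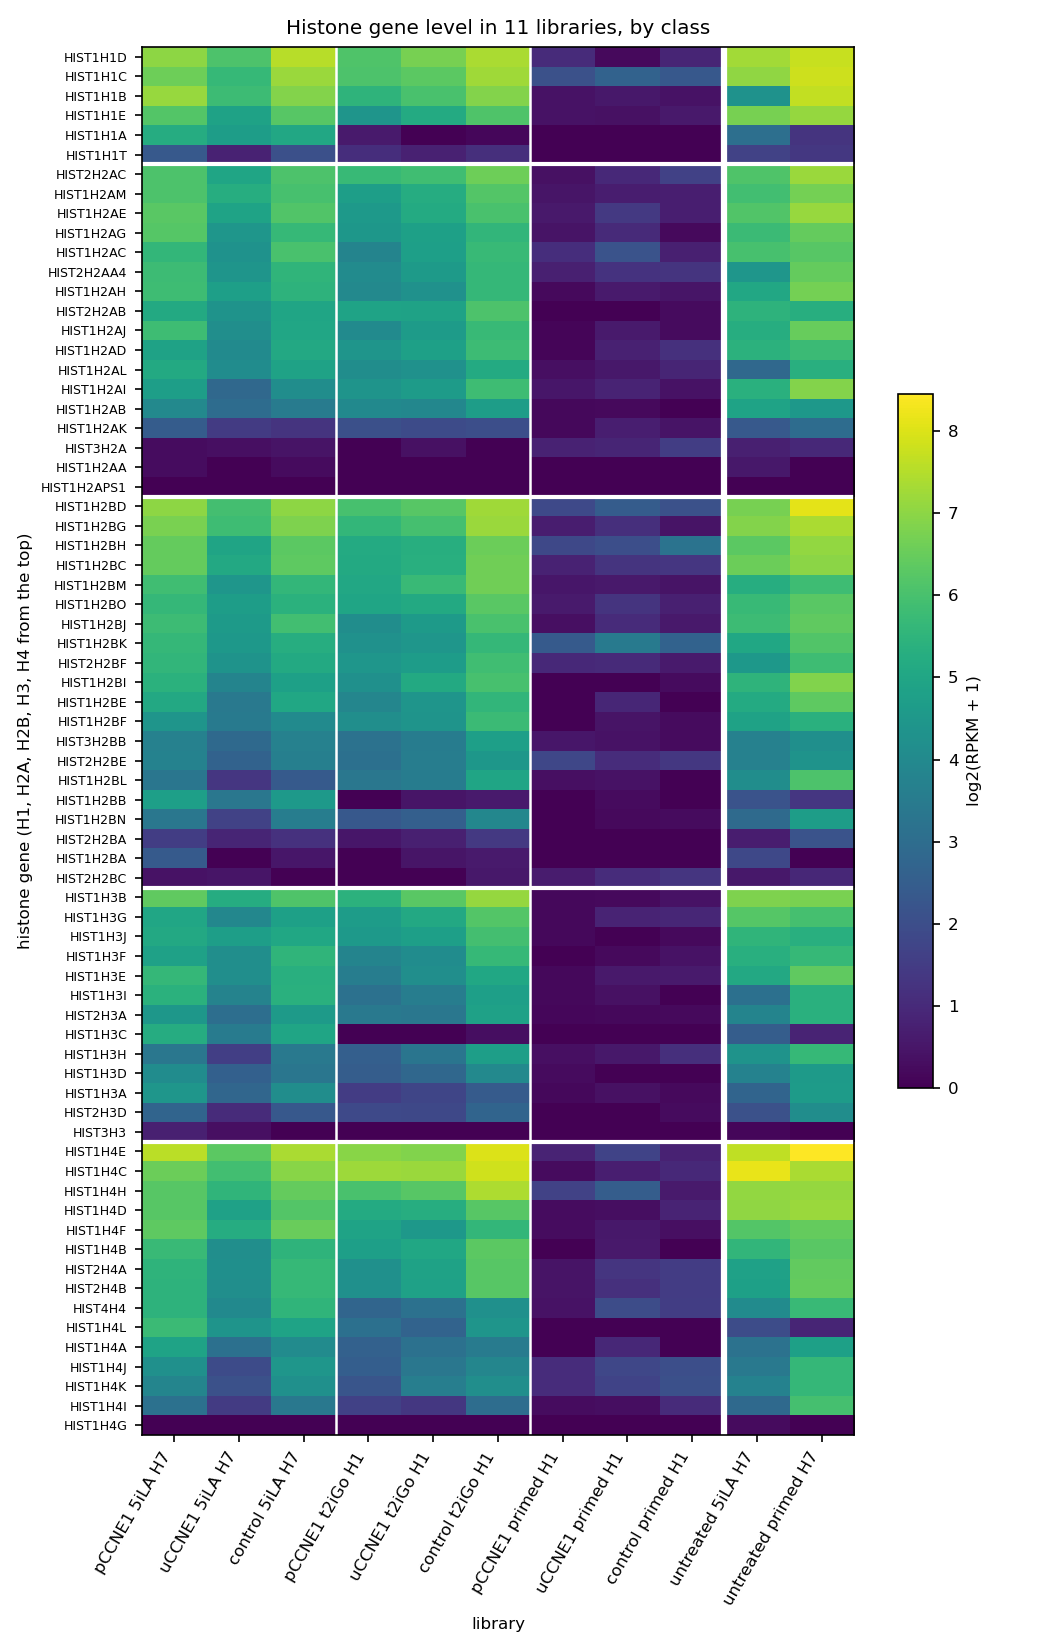
Level of each of the 71 histone genes in each of 11 libraries as log2(RPKM + 1), with genes in rows ordered by class and then by mean level, and libraries in columns. The 3 primed H1 columns are dark for nearly every gene, and the 2 untreated columns come from a separate table.

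The classes kept similar proportions outside primed H1. H2B genes took 24.8 to 26.5% of the members' summed RPKM in the 5iLA libraries and 25.2 to 28.1% in the t2iGo libraries, H4 genes 26.0 to 27.0% and 28.1 to 32.6%, and H2A genes 18.3 to 20.3% and 18.6 to 19.5%. Linker genes took 15.3 to 18.4% in the 5iLA libraries and 13.0 to 15.2% in the t2iGo libraries, and H3 genes 11.4 to 11.9% and 9.70 to 11.8%. In primed H1 the H2B share was 40.1 to 47.4% and the H3 share 3.88 to 6.37%. The 5 highest members together held 22.2 to 24.6% of the sum in the 5iLA libraries, 25.1 to 31.4% in the t2iGo libraries and 38.9 to 42.9% in the primed H1 libraries. HIST1 genes held 87.6 to 88.1%, 86.5 to 87.6% and 75.1 to 82.7%, and HIST2 genes 10.3 to 10.5%, 11.3 to 12.4% and 11.7 to 18.5%.

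**Figure D2:**
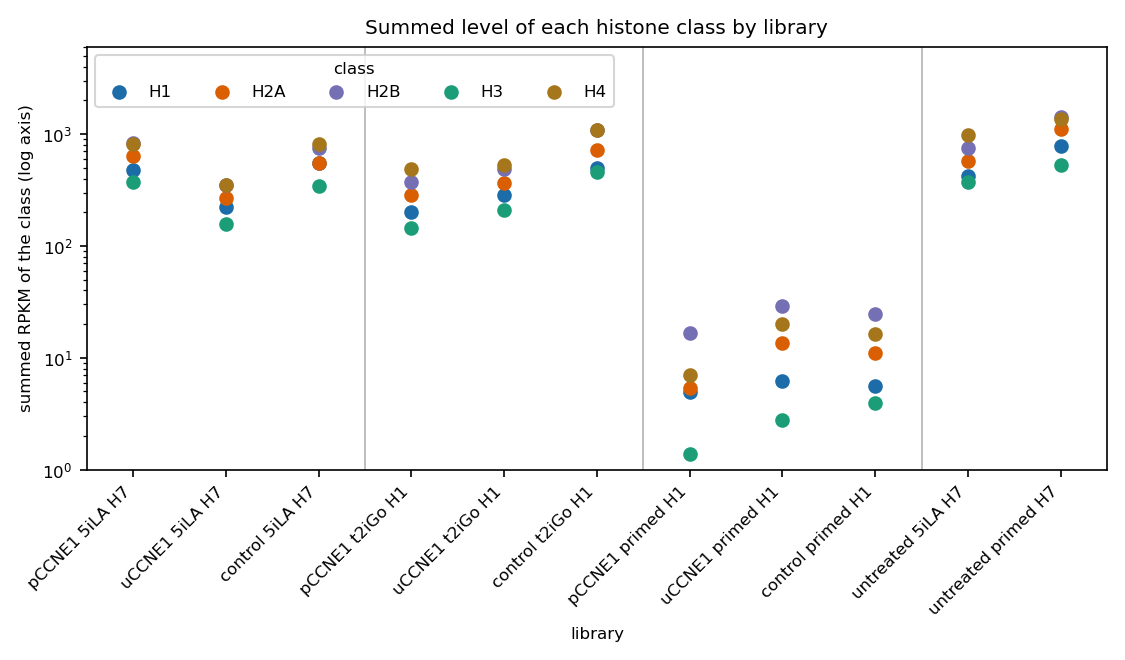
Summed RPKM of the members of each class (points, log axis) in each of the 11 libraries, with the 3 shRNA libraries of a culture side by side and the 2 untreated libraries, from a separate table, at the right. Class sums lie between 1.38 and 28.9 RPKM in primed H1 and between 145 and 1409 RPKM in all other libraries.

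Among linker histones, which bind the DNA between nucleosomes, HIST1H1D had the highest mean over all 9 libraries: in 5iLA H7 with the pCCNE1, uCCNE1 and control shRNAs it was at 129, 66.8 and 184 RPKM, in t2iGo H1 at 69.0, 105 and 165 RPKM and in primed H1 at 1.04, 0.152 and 0.817 RPKM. HIST1H1C was the highest linker gene in each primed H1 library: in 5iLA H7 with the pCCNE1, uCCNE1 and control shRNAs it was at 96.0, 49.5 and 145 RPKM, in t2iGo H1 at 67.3, 79.4 and 149.9 RPKM and in primed H1 at 3.24, 5.33 and 3.98 RPKM. For HIST1H1B, in 5iLA H7 with the pCCNE1, uCCNE1 and control shRNAs it was at 142, 54.7 and 118 RPKM, in t2iGo H1 at 44.1, 64.4 and 117 RPKM and in primed H1 at 0.319, 0.446 and 0.320 RPKM. In each of these 3 genes the lowest library of 5iLA H7 or t2iGo H1 was far above the highest of primed H1. Of all genes tested, 10.6% lay wholly above primed H1 in t2iGo H1. The uCCNE1 library was the lowest of 5iLA H7 for each of the 3 genes.

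H2A and H2B pair as dimers on either face of the nucleosome. HIST2H2AC had the highest mean of the H2A genes over all 9 libraries, though not within 5iLA H7 or primed H1: in 5iLA H7 with the pCCNE1, uCCNE1 and control shRNAs it was at 66.8, 30.0 and 67.7 RPKM, in t2iGo H1 at 50.4, 56.9 and 95.2 RPKM and in primed H1 at 0.301, 0.950 and 2.12 RPKM. HIST1H2AM had 66.8, 37.6 and 62.0 RPKM in 5iLA H7, 25.9, 36.6 and 71.7 RPKM in t2iGo H1 and 0.379, 0.586 and 0.644 RPKM in primed H1, in the same order of shRNAs (pCCNE1, uCCNE1, control). HIST1H2AE had 78.0, 28.7 and 69.6 RPKM, 22.9, 34.7 and 63.9 RPKM and 0.506, 1.65 and 0.640 RPKM in these cultures. HIST1H2AM shares over 50% of its 50-base words with other histone transcripts, so its reads may be split with them and its values are uncertain. In t2iGo H1 the control library was the highest of 3 for all 3 genes.

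Of the H2B genes HIST1H2BD had the highest mean over all 9 libraries: in 5iLA H7 with the pCCNE1, uCCNE1 and control shRNAs it was at 128, 60.2 and 127 RPKM, in t2iGo H1 at 62.6, 75.8 and 149.8 RPKM and in primed H1 at 2.65, 4.56 and 3.26 RPKM. HIST1H2BG had 108, 55.1 and 111 RPKM in 5iLA H7 (pCCNE1, uCCNE1, control), 46.9, 61.6 and 144 RPKM in t2iGo H1 and 0.584, 1.18 and 0.374 RPKM in primed H1. HIST1H2BH had 86.4, 29.7 and 79.0 RPKM, 35.01, 38.5 and 93.0 RPKM and 2.52, 3.11 and 8.32 RPKM in these cultures. The groups of 3 again did not overlap between primed H1 and either other culture, although HIST1H2BH was the highest member of the primed control library. Of all genes tested, 10.6% lay wholly above and 68.1% wholly below primed H1 in t2iGo H1. No such share was taken for 5iLA H7 against primed H1.

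H3 and H4 form the core tetramer. HIST1H3B had the highest mean of the H3 genes over all 9 libraries: in 5iLA H7 with the pCCNE1, uCCNE1 and control shRNAs it was at 82.6, 37.0 and 68.7 RPKM, in t2iGo H1 at 42.3, 77.8 and 138 RPKM and in primed H1 at 0.133, 0.154 and 0.339 RPKM. HIST1H3G had 31.1, 14.1 and 26.7 RPKM in 5iLA H7 (pCCNE1, uCCNE1, control), 24.4, 33.4 and 71.7 RPKM in t2iGo H1 and 0.135, 0.783 and 0.863 RPKM in primed H1. HIST1H3J had 33.2, 25.7 and 32.1 RPKM, 22.7, 26.4 and 60.5 RPKM and 0.130, 0 and 0.166 RPKM in these cultures. No H3 gene exceeded 1.18 RPKM in primed H1 (the highest was HIST1H3H).

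By the mean over all 9 shRNA libraries HIST1H4E was the highest member: in 5iLA H7 with the pCCNE1, uCCNE1 and control shRNAs it was at 191, 78.4 and 166 RPKM, in t2iGo H1 at 122, 115 and 254 RPKM and in primed H1 at 0.779, 2.25 and 0.760 RPKM. HIST1H4C had 93.3, 58.2 and 121 RPKM in 5iLA H7 (pCCNE1, uCCNE1, control), 147, 145 and 227 RPKM in t2iGo H1 and 0.183, 0.636 and 0.950 RPKM in primed H1. HIST1H4H had 76.0, 45.1 and 86.0 RPKM, 64.2, 75.3 and 170.2 RPKM and 2.17, 4.57 and 0.515 RPKM in these cultures. HIST1H4E was thus more abundant than HIST1H4C in all 3 libraries of 5iLA H7, while in t2iGo H1 it was lower in both CCNE1 shRNA libraries and higher in the control library.

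Members of a class differed widely among themselves. Over the 14 H2A genes tested, the mean of 3 libraries ran over 2.54 to 58.8 RPKM in the 5iLA libraries, 3.06 to 67.5 RPKM in the t2iGo libraries and 0.0617 to 1.76 RPKM in the primed H1 libraries. Over the 17 H2B genes it ran over 4.90 to 105 RPKM, 0.311 to 96.1 RPKM and 0.0595 to 6.60 RPKM in the same cultures. Over the 12 H3 genes it ran over 3.54 to 62.8 RPKM, 0.0799 to 85.9 RPKM and 0 to 0.636 RPKM. The lowest H2B and H3 genes of t2iGo H1 were HIST1H2BB and HIST1H3C, which were well above the lowest of their class in 5iLA H7. For the 14 H4 genes the range was 6.38 to 145 RPKM, 3.59 to 173 RPKM and 0 to 2.42 RPKM, and for the 6 linker genes 2.66 to 127 RPKM, 0.212 to 113 RPKM and 0 to 4.18 RPKM.

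A mean of 1 RPKM over the 9 shRNA libraries was reached by 63 members, of which 63 also reached it in 5iLA H7, 60 in t2iGo H1 and 16 in primed H1. Most of the 63 thus passed through the cultures where they were high. The other 8 had lower means: HIST1H4G and the pseudogene HIST1H2APS1 were listed at 0 in all 9, and the rest are HIST1H2AA, HIST1H2BA, HIST3H3, HIST3H2A and the pseudogenes HIST2H2BA and HIST2H2BC. Testis members were at or near 0 in most libraries. HIST1H1T, the linker histone of spermatocytes, was at 4.08, 0.753 and 3.15 RPKM in 5iLA H7 (pCCNE1, uCCNE1, control), at 1.18, 0.717 and 1.21 RPKM in t2iGo H1 and listed at 0 in all 3 primed H1 libraries. HIST1H2BA, a testis H2B, reached 4.31 RPKM in the pCCNE1 library of 5iLA H7, against 0 and 0.435 RPKM with uCCNE1 and control. HIST1H2AA and HIST3H3 stayed at or below 0.691 RPKM in every library. HIST3H2A, named after its values were seen, ran the other way. It was at 0, 0.315 and 0 RPKM in t2iGo H1 and 0.736, 0.855 and 1.88 RPKM in primed H1. HIST2H2BC was at 0, 0 and 0.450 RPKM in t2iGo H1 and 0.580, 1.12 and 1.47 RPKM in primed H1. In primed H1 these were the 2 members above all t2iGo libraries. Among genes tested, which leave both out, 68.1% lay that way.

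The comparison of t2iGo with primed cells was made in line H1, with the 3 shRNAs in place of replicates. By limma on log2(RPKM + 1), with culture and shRNA as terms and Benjamini-Hochberg adjustment over 12116 genes at 0.05, 60 of the 63 members tested were higher in t2iGo H1 and 0 were lower. Over all genes 8.77% were higher and 63% lower. Only 16 of the 63 reached a mean of 1 RPKM in primed H1, so the filter itself favours members that are high elsewhere. With no filter 61 of 69 members were higher and 2 lower, beside 7.82% and 47.5% of all genes. Under 3 other scalings the split of all genes moved, to 34.2% higher and 33.1% lower under quantile normalization, 32.3% and 34.4% under median-ratio scaling and 40.5% and 28.2% when rescaled on genes other than members and small RNAs, while 60 to 61 members were higher and 0 lower. The median difference was 4.20 among members and -0.82 among all genes tested. These 60 members had all 3 t2iGo libraries above all 3 primed libraries, as had 10.6% of all genes, while 0 members and 68.1% of all genes lay below. By class, 14 of 14 H2A, 16 of 17 H2B, 11 of 12 H3, 14 of 14 H4 and 5 of 6 linker genes tested were higher. Medium and preparation cannot be told apart here, and the share of small non-coding RNAs moved with the members; its part in the result was not tested. Untreated primed H7, whose small non-coding RNAs took 7.62% of summed RPKM, had a median member of 56.1 RPKM.

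The largest differences were 6.77 ± 0.23 (SE, limma estimate on the log2 scale) for HIST1H4C, 6.15 ± 0.38 for HIST1H4E, 6.05 ± 0.29 for HIST1H1D, 6.01 ± 0.34 for HIST1H3B and 5.69 ± 0.34 for HIST1H1B (limma, adjusted p = 5.08e-09, 2.08e-07, 7.13e-08, 1.34e-07 and 1.73e-07). Among the other leading members, HIST1H2BG differed by 5.49 ± 0.36, HIST2H2AC by 5.05 ± 0.28 and HIST1H3J by 4.96 ± 0.26. HIST1H2AM differed by 4.77 ± 0.28, HIST1H3G by 4.68 ± 0.32, HIST1H2AE by 4.35 ± 0.40 and HIST1H2BH by 3.32 ± 0.31. The pseudocount of 1 understates differences of genes near 0, and with a pseudocount of 0.1 the median member was at 5.65. The 3 members that did not pass were HIST1H1A at 0.25 ± 0.18, HIST1H2BB at 0.29 ± 0.31 and HIST1H3C at 0.10 ± 0.30 (limma, adjusted p = 0.217, 0.419 and 0.770), which were near 0 in both cultures. With the pseudocount of 0.1 HIST1H1A passed, at 1.24.

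Members known to give polyadenylated messages held part of the histone signal left in primed H1, and 4 of these 6 were at 1 RPKM or more in all 3 primed libraries (HIST1H1C, HIST1H2BD, HIST1H2BK and HIST2H2BE). HIST1H2BK was at 4.31, 10.3 and 5.25 RPKM with the pCCNE1, uCCNE1 and control shRNAs, HIST1H1C at 3.24, 5.33 and 3.98 RPKM and HIST1H2BD at 2.65, 4.56 and 3.26 RPKM. HIST1H4H was at 2.17, 4.57 and 0.515 RPKM, HIST1H2AC at 1.17, 3.45 and 0.672 RPKM and HIST2H2BE at 2.48, 1.11 and 1.61 RPKM. These 6 genes held 16.02, 29.3 and 15.3 RPKM of the members' 35.4, 71.8 and 61.6 RPKM in the same libraries. Outside that list 3 members were at 1 RPKM or more in all 3 primed libraries: HIST1H2BH and the near-identical HIST1H4J and HIST1H4K, whose values are uncertain. In the control library HIST1H4H and HIST1H2AC were below all 3 of these. In 5iLA H7 the 6 genes held 408, 201 and 471 RPKM and in t2iGo H1 233, 289 and 591 RPKM. HIST1H2BK took 21.3% to 35.4% of the H2B sum in primed H1, against 4.31% to 4.94% in t2iGo H1.

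All 6 genes of that list were higher in t2iGo H1 than in primed H1, with a median difference of 3.81, beside 4.21 for the other 57 members tested. HIST1H2BK differed by 1.94 ± 0.39, HIST2H2BE by 2.30 ± 0.30 and HIST1H2AC by 3.43 ± 0.50. HIST1H1C differed by 4.20 ± 0.32, HIST1H2BD by 4.35 ± 0.32 and HIST1H4H by 4.99 ± 0.47 (limma, adjusted p at most 8.08e-04 for the 6). HIST1H1T differed by 1.02 ± 0.26 (limma, adjusted p = 0.00437) and missed the threshold without the control libraries.

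Between 5iLA H7 and t2iGo H1, where medium and line differ together, 50 of 63 members did not pass in either direction and a few stood far apart. By the same limma fit 9 of 63 members were higher in 5iLA H7 and 4 were lower. Over all genes 14.9% were higher and 40.1% lower, with a median of -0.31 beside 0.17 for the members. The share of members higher was thus near that of all genes, and the share lower was below it. Under median-ratio scaling 17 members were higher and 1 lower, beside 30% and 27% of all genes, and under quantile normalization 13 and 1, beside 25.9% and 29%. Without the pCCNE1 libraries 7 were higher and 15 lower, beside 12.6% and 33.1% of all genes, with a members' median of -0.36. Without the uCCNE1 libraries the counts were 13 and 1, beside 12.2% and 24.8%, and without the control libraries 7 and 1, beside 10.2% and 38.7%. HIST1H1A, a linker histone gene, was at 36.5, 24.8 and 32.2 RPKM in 5iLA H7 with the pCCNE1, uCCNE1 and control shRNAs, against 0.527, 0 and 0.110 RPKM in t2iGo H1. HIST1H2BB was at 26.5, 9.21 and 22.3 RPKM in 5iLA H7, against 0, 0.400 and 0.534 RPKM in t2iGo H1. HIST1H3C was at 36.7, 10.4 and 30.7 RPKM in 5iLA H7, against 0, 0 and 0.240 RPKM in t2iGo H1. Every 5iLA library was above every t2iGo library for these 3 genes and for HIST1H3A, and for no other member tested. The same held for 16.4% of all genes.

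The differences were 4.74 ± 0.18 for HIST1H1A, 4.47 ± 0.30 for HIST1H3C and 3.86 ± 0.31 for HIST1H2BB (limma, adjusted p = 9.03e-09, 5.56e-07 and 1.93e-06), and they passed under each alternative tried. These 3 members reached the filter's mean of 1 RPKM only through the 5iLA libraries, so the filter itself favours them here. With no filter 7 of 69 members were higher in 5iLA H7 and 2 lower, beside 11.6% and 26.2% of all genes. HIST1H3A was at 20.6, 5.99 and 16.8 RPKM in 5iLA H7, against 1.86, 2.42 and 4.39 RPKM in t2iGo H1, a difference of 1.89 ± 0.33 (limma, adjusted p = 5.28e-04). HIST4H4, the lone member on chromosome 12, was at 43.2, 14.95 and 45.6 RPKM in 5iLA H7, against 5.70, 7.81 and 17.9 RPKM in t2iGo H1, a difference of 1.63 ± 0.42 (limma, adjusted p = 0.00690), which missed the threshold without the control libraries (adjusted p = 0.0580). HIST1H1T differed by 0.72 ± 0.26 (limma, adjusted p = 0.0360) and missed the threshold without the pCCNE1 or the control libraries, and the other 3 members called higher, HIST1H4L, HIST1H4F and HIST1H3I, by 1.02 to 1.61.

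The 4 members lower in 5iLA H7 were HIST1H2BL, HIST1H2AI, HIST1H4C and HIST1H2AB. HIST1H4C, whose levels are given above, differed by -0.95 ± 0.23 and HIST1H2BL by -1.61 ± 0.43; in these 2 members, and in 43.1% of all genes, every 5iLA library lay below every t2iGo library. HIST1H2BL was at 8.88, 1.51 and 4.30 RPKM in 5iLA H7, against 9.32, 10.6 and 30.4 RPKM in t2iGo H1. HIST1H2AI was at 25.6, 6.28 and 16.8 RPKM in 5iLA H7, against 19.9, 24.2 and 56.4 RPKM in t2iGo H1, with overlapping groups and a difference of -1.04 ± 0.41. HIST1H2AB was at 14.9, 6.94 and 10.5 RPKM in 5iLA H7, against 14.9979, 14.1 and 25.0 RPKM in t2iGo H1, a difference of -0.70 ± 0.25 (limma, adjusted p = 0.00407 for HIST1H4C, 0.00799 for HIST1H2BL, 0.0483 for HIST1H2AI and 0.0316 for HIST1H2AB). HIST1H4C passed under each alternative, while the calls of HIST1H2AI and HIST1H2AB ended under each of 3 changes of scale and without the uCCNE1 or the control libraries, and that of HIST1H2BL under 2 of these scales and without either set of libraries. HIST1H2AI has near-identical copies, so its values are uncertain.

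**Figure D3:**
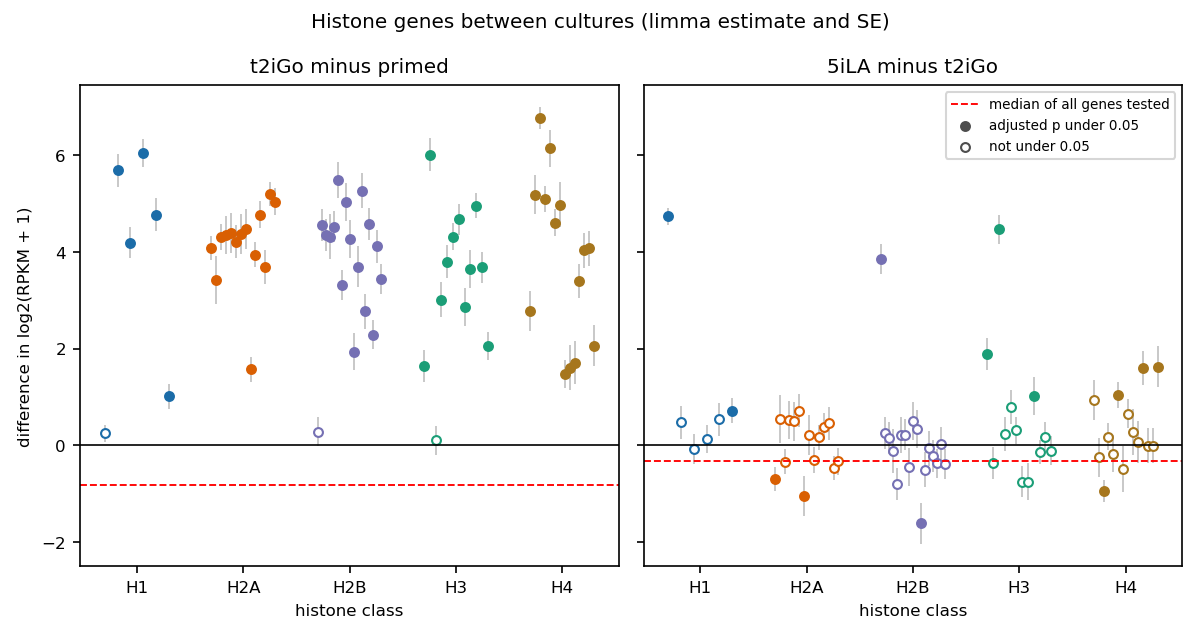
Difference in log2(RPKM + 1) of each of the 63 histone genes tested, by class, for t2iGo minus primed (left) and 5iLA minus t2iGo (right). Points are limma estimates with the SE as bars, filled where the adjusted p was under 0.05, and the dashed line is the median of all genes tested, at -0.82 and -0.31.

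Among the shRNA libraries the use of members within a class, which no scaling of a library can change, differed in the same way. HIST1H1A made up 5.78% to 11.1% of the summed RPKM of linker genes in 5iLA H7, against 0% to 0.261% in the t2iGo libraries. HIST1H3C made up 6.65% to 9.82% of the H3 sum in the 5iLA libraries, against 0% to 0.0526% in the t2iGo libraries. HIST1H4C went the other way, with 11.4% to 16.7% of the H4 sum in the 5iLA libraries, against 20.7% to 30.1% in the t2iGo libraries. In untreated 5iLA H7 these shares were 1.80% for HIST1H1A, 1.26% for HIST1H3C and 29.2% for HIST1H4C. Each of these lies outside the range of the 5iLA shRNA libraries, and that of HIST1H4C lies within the t2iGo range. HIST1H1A, HIST1H2BB and HIST1H3C stand at places 4, 10 and 11 of the 56 HIST1 genes in RefSeq order on chromosome 6. Between them lie HIST1H3A, HIST1H4A, HIST1H4B, HIST1H3B and HIST1H2AB, and HIST1H4B was at 51.6, 17.2 and 43.9 RPKM in 5iLA H7, against 26.3, 31.6 and 79.8 RPKM in t2iGo H1. The low levels in t2iGo H1 were thus interspersed with high ones along this end of the cluster.

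**Figure D4:**
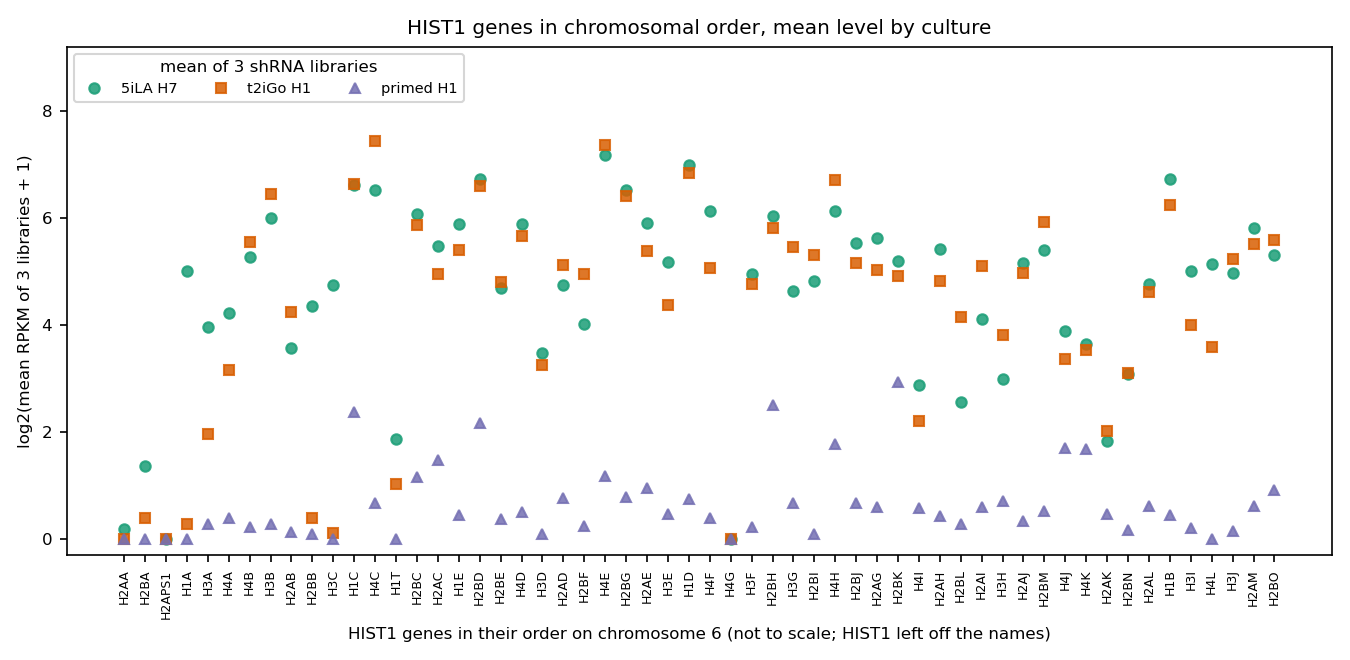
HIST1 genes in their order on chromosome 6 (x axis, not to scale), with the log2 of the mean RPKM over the 3 shRNA libraries plus 1 for 5iLA H7, t2iGo H1 and primed H1. HIST1H1A, HIST1H2BB and HIST1H3C are near 0 in t2iGo H1 and primed H1 and high in 5iLA H7. Of the genes between them, HIST1H4B, HIST1H3B and HIST1H2AB are well above 0 in both 5iLA H7 and t2iGo H1. HIST1H3A and HIST1H4A are lower in t2iGo H1 than in 5iLA H7.

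The untreated H7 cells compare 5iLA with primed culture in 1 line, with 1 library a side and so with no test and no replicate check. Of 65 members with a mean of at least 1 RPKM in that table, 4 were at least 2-fold higher in 5iLA on the log2(RPKM + 1) scale and 28 at least 2-fold lower. Among all 11015 genes past that filter, 11% were at least 2-fold higher and 3.94% lower. The median difference was -0.76 among members and 0.23 among all genes. The summed level of the members in 5iLA was 59.4% of that in primed H7, and by class it ran from 51.8% for H2A to 71.3% for H4. Small non-coding RNAs took 31.4% of summed RPKM in 5iLA, against 7.62% in primed, and their part in the difference was not tested. Relative to all other genes, with small RNAs and members set aside, the members in 5iLA were at 48.1% of primed.

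The largest gap was in the linker gene HIST1H1B, at 18.8 RPKM in 5iLA and 202 RPKM in primed H7. HIST1H4I was at 6.38 RPKM in 5iLA and 61.9 RPKM in primed H7. HIST1H2AL was at 6.23 RPKM in 5iLA and 38.9 RPKM in primed H7, and HIST1H3I at 7.79 RPKM in 5iLA and 39.9 RPKM in primed H7. These 4 genes, of 4 classes, were each far lower in 5iLA. In the other direction, HIST1H1A was at 7.51 RPKM in 5iLA and 1.43 RPKM in primed H7, and HIST1H3C at 4.66 RPKM in 5iLA and 0.811 RPKM in primed H7. HIST1H4L was at 2.90 RPKM in 5iLA and 0.848 RPKM in primed H7, while the testis gene HIST1H2BA was at 2.53 RPKM in 5iLA and 0 RPKM in primed H7. HIST1H2BB was at 3.45 RPKM in 5iLA and 1.52 RPKM in primed H7. In both untreated libraries HIST1H1A, HIST1H2BB and HIST1H3C were thus below the median member, which was at 28.2 RPKM in 5iLA and 56.1 RPKM in primed H7. Most other members were high in primed H7. HIST1H4E, for example, was at 197 RPKM in 5iLA and 349 RPKM in primed H7, and HIST1H2BD at 104 RPKM in 5iLA and 273 RPKM in primed H7. HIST1H1C was at 131 RPKM in 5iLA and 222 RPKM in primed H7, and HIST1H1D at 153 RPKM in 5iLA and 215 RPKM in primed H7. HIST1H4C was higher in 5iLA, at 285 RPKM in 5iLA and 166 RPKM in primed H7, which is within 2-fold. No difference was computed or tested between the untreated table and the shRNA table. Where levels or shares from both are set side by side, this is description only.

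The effect of the hairpins was tested across the 3 cultures. By limma, 0 members and 0 of 12116 genes passed for pCCNE1 against control, so 0% of genes were called in either direction, and 10 of 63 members had an unadjusted p under 0.05, as had 14.8% of all genes, so that the members' share was near that of all genes. The median difference was -0.48 among members and -0.15 among all genes, with 60 of 63 members and 73.8% of all genes below 0. For uCCNE1 against control the limma counts were again 0 members and 0% of genes, with 24 members and 10.2% of all genes under an unadjusted p of 0.05. Its median difference was -0.67 among members and -0.14 among all genes, with 62 of 63 members and 73.9% of all genes below 0. Both comparisons use the same 3 control libraries. In the direct comparison of pCCNE1 with uCCNE1, 0 members and 0% of genes passed by limma and 1 member and 4.09% of all genes had an unadjusted p under 0.05. Its median was 0.20 among members and -0.024 among all genes.

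By class, the median difference of pCCNE1 from control was -0.45 for linker genes, -0.45 for H2A, -0.47 for H2B, -0.50 for H3 and -0.55 for H4. For uCCNE1 it was -0.65 for linker genes, -0.60 for H2A, -0.63 for H2B, -0.68 for H3 and -0.74 for H4. The smallest p for pCCNE1 belonged to HIST1H3F and HIST1H2AD. HIST1H3F was at 27.6, 17.0 and 44.7 RPKM in 5iLA H7 with pCCNE1, uCCNE1 and control, at 13.2, 16.4 and 49.1 RPKM in t2iGo H1 and at 0, 0.157 and 0.346 RPKM in primed H1. The pCCNE1 library was below control in each culture. HIST1H2AD had 28.1, 15.4 and 33.7 RPKM in 5iLA H7, 20.4, 26.9 and 54.7 RPKM in t2iGo H1 and 0.0772, 0.722 and 1.27 RPKM in primed H1, again below control with pCCNE1 in each. Their differences were -0.97 ± 0.28 and -0.90 ± 0.26 (limma, adjusted p = 0.203 for each).

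For uCCNE1 the smallest p belonged to HIST1H4I and HIST1H2BH, at -1.43 ± 0.29 and -1.27 ± 0.31 (limma, adjusted p = 0.349 for each). HIST1H4I was at 7.97, 1.74 and 9.43 RPKM in 5iLA H7 with pCCNE1, uCCNE1 and control, at 2.09, 1.60 and 7.08 RPKM in t2iGo H1 and at 0.202, 0.233 and 1.05 RPKM in primed H1. It and HIST1H2BH, whose values are given above, were below control with uCCNE1 in all 3 cultures. With only the 6 libraries of uCCNE1 and control in the fit 3 of 63 members were called lower, beside 0.272% of all genes, and without the t2iGo libraries 4 were, beside 0.817%. In pCCNE1 against uCCNE1 the smallest p belonged to HIST1H1T at 0.63 ± 0.26 and to HIST1H4I at 0.64 ± 0.29 (limma, adjusted p = 0.990 for each). Without the t2iGo libraries the median of the members for pCCNE1 against control was 0.020, and without the 5iLA libraries that for pCCNE1 against uCCNE1 was -0.35. Both medians thus changed sign when 1 culture was left out, although in primed H1 alone that for pCCNE1 against control was -0.17. The median for uCCNE1 against control was -1.04 without the primed libraries.

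Within single cultures, with 1 library a side and no test, the members' summed level was far below control with uCCNE1 in 5iLA H7 and with both hairpins in t2iGo H1. In 5iLA H7 the members' summed level with pCCNE1 was 104% of control and with uCCNE1 44.4%. With pCCNE1, 1 member was at least 2-fold higher and 0 were lower, beside 0.875% and 4.9% of all genes. With uCCNE1, 40 of 63 members were at least 2-fold lower and 0 higher, beside 4.94% and 0.528% of all genes. The median member was at 0.14 with pCCNE1 and -1.14 with uCCNE1, and the median of all genes at -0.30 and -0.34. When libraries were rescaled on genes other than members and small RNAs, 10 members were at least 2-fold lower with uCCNE1 and 9 higher with pCCNE1. Fibroblast markers summed to 14.6 RPKM with pCCNE1 and 16.4 with uCCNE1, against 5.19 RPKM in control. HIST1H4E, for example, was at 191 RPKM with pCCNE1 and 78.4 with uCCNE1, against 166 RPKM in control.

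In t2iGo H1 the summed level was 38.8% of control with pCCNE1 and 48.4% with uCCNE1. With pCCNE1, 51 of 63 members were at least 2-fold lower and 0 higher, beside 2.72% and 0.735% of all genes. With uCCNE1, 34 were at least 2-fold lower and 0 higher, beside 0.636% and 0.38% of all genes. The median member was at -1.39 with pCCNE1 and -1.06 with uCCNE1. By class the sum with pCCNE1 ran from 31.8% of control for H3 to 44.6% for H4, and with uCCNE1 from 44.5% for H2B to 56.6% for linker genes. All 5 classes were thus lower with both hairpins. Markers of fibroblasts or feeder cells moved with this: their summed level was 226 RPKM with pCCNE1 and 129 with uCCNE1, against 68.6 RPKM in control, with 7 and 6 of 7 markers above control and none at 0. The 3 libraries also had the lowest depth with pCCNE1, at 6.43 M reads, against 9.78 with uCCNE1 and 14.2 in control. Their part in the difference was not tested.

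In primed H1 the members' sum was 57.5% of control with pCCNE1 and 117% with uCCNE1. With pCCNE1, 6 members were at least 2-fold lower and 1 higher, beside 3.61% and 0.924% of all genes. With uCCNE1, 1 was lower and 2 higher, beside 2.82% and 0.619% of all genes. Those higher with uCCNE1 were HIST1H4H and HIST1H2AC, both of the polyadenylated list, and HIST1H4H was also the member higher with pCCNE1. Levels were near those of single reads in this culture, and with a pseudocount of 0.1 the counts were 21 lower and 5 higher with pCCNE1 and 10 lower and 14 higher with uCCNE1.

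**Figure D5:**
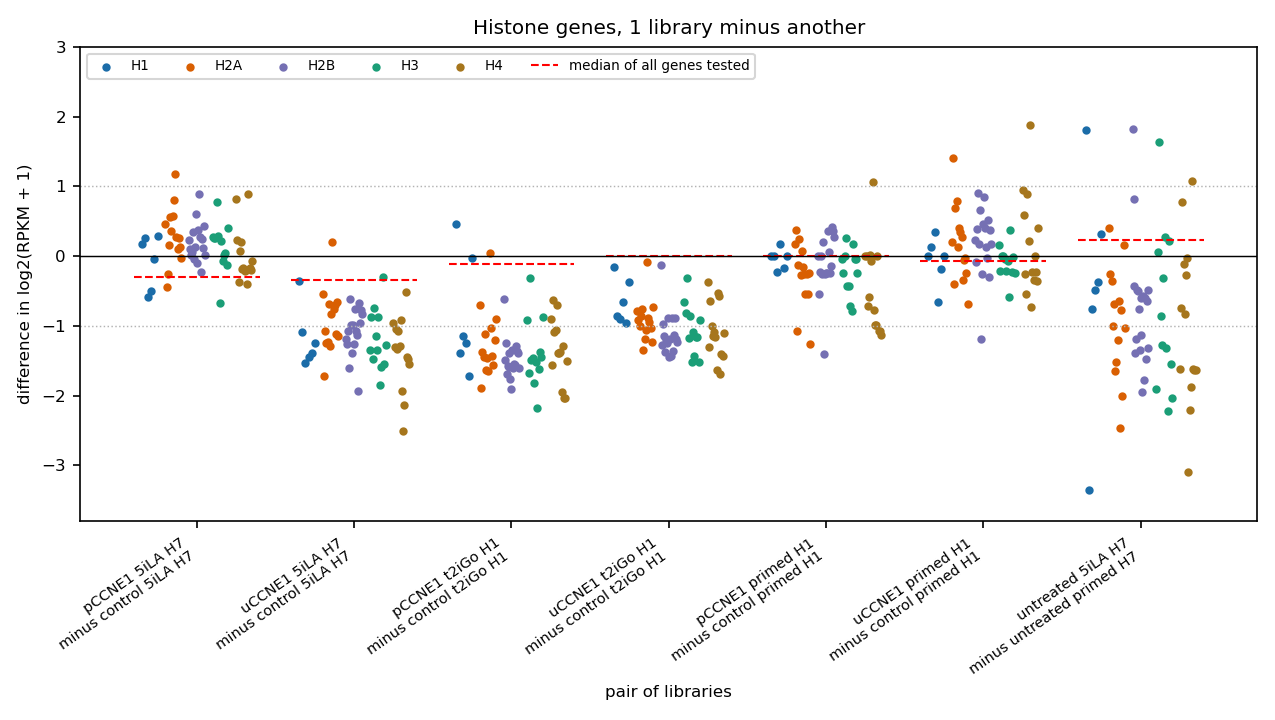
Difference in log2(RPKM + 1) of each histone gene tested, coloured by class, for 7 pairs of single libraries (x axis), with 2-fold differences as dotted lines and the median of all genes tested as a dashed red line. The medians of the members are 0.14 for pCCNE1 in 5iLA H7, -1.14 for uCCNE1 in 5iLA H7, and -1.39 and -1.06 for pCCNE1 and uCCNE1 in t2iGo H1.

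Whether a hairpin acted differently in the cultures labelled naive (5iLA H7 and t2iGo H1 together) and in primed H1 was tested with an interaction term, which leaves 2 residual degrees of freedom. By limma 0 of 63 members passed for pCCNE1, beside 0.107% of all genes higher and 0.116% lower, and 1 member and 6.69% of all genes had an unadjusted p under 0.05. For uCCNE1 0 members passed by limma, beside 0.0495% and 0.107% of all genes, and 19 members and 4.87% of all genes had an unadjusted p under 0.05. The median difference between the effects was -0.35 among members for pCCNE1 and -1.15 for uCCNE1, and -0.19 and -0.10 among all genes. The median member of control primed H1 was at 0.373 RPKM, so on log2(RPKM + 1) most members could fall only slightly there. For the members a smaller hairpin effect in primed H1 and this floor therefore cannot be told apart. The smallest adjusted p of a member was 0.494 for pCCNE1 and 0.165 for uCCNE1.

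Lists of genes that act on these messages are read against all genes, of which 8.77% were higher and 63% lower in t2iGo H1 than in primed H1. Of the factors for 3' end processing, 0 of 11 tested were higher and 6 lower by limma, a share lower that does not exceed that of all genes, with a median of -0.47. Under the 3 other scalings 6 of the 11 were higher and 3 lower, with medians of 0.34 to 0.63, so this list has no direction independent of the scaling. SLBP, the stem-loop binding protein, was at 25.5, 27.6 and 23.0 RPKM in t2iGo H1 with pCCNE1, uCCNE1 and control, against 23.7, 22.8 and 20.5 RPKM in primed H1. LSM10, a core protein of the U7 snRNP, was at 1.40, 2.90 and 2.46 RPKM in t2iGo H1, against 20.7, 30.1 and 31.3 RPKM in primed H1, a difference of -3.13 ± 0.22 (limma, adjusted p = 3.98e-07). SYMPK, the scaffold of the cleavage complex, differed by -2.77 ± 0.20 and SRRT, a partner of the cap binding complex, by -2.37 ± 0.25. Of the transcription list, 4 of 8 tested were higher and 4 lower (4 to 6 higher and 0 lower under those scalings), and NPAT was at 8.84, 8.26 and 7.84 RPKM in t2iGo H1, against 4.97, 4.66 and 4.50 RPKM in primed H1. Of the decay list, 1 of 6 tested were higher and 2 lower (4 to 5 higher and 1 lower under those scalings), with the helicase gene UPF1 at -2.09 ± 0.20 and the exonuclease gene ERI1 at 0.54 ± 0.18.

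Of the replacement histones 0 of 11 tested were higher and 9 lower, with a median of -1.38, and under the 3 other scalings 4 to 6 were lower, 0 to 2 higher and the median was -0.37 to 0.0082. H1FX differed by -3.90 ± 0.33, H1F0 by -3.71 ± 0.34 and H2AFX by -2.92 ± 0.25. H3F3B, an H3 made throughout the cycle, was at 66.7, 71.0 and 68.9 RPKM in t2iGo H1, against 192, 157 and 195 RPKM in primed H1. Of S phase genes 0 of 21 tested were higher and 16 lower, with a median of -1.21, against 8 to 10 lower, 4 to 7 higher and a median of -0.34 to -0.086 under those scalings. The licensing factor CDT1 differed by -2.83 ± 0.24 and the helicase subunit gene MCM5 by -2.78 ± 0.27. Of histone chaperones 0 of 10 tested were higher and 9 lower, with HIRA at -2.35 ± 0.19, and under those scalings 2 to 4 were lower and 1 to 3 higher. The median of all genes was -0.82 on the scale as deposited, and the counts of each list depend on the scaling.

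Between 5iLA H7 and t2iGo H1 14.9% of all genes were higher and 40.1% lower in 5iLA H7. Of the chaperones 0 of 10 tested were higher and 8 lower (median -0.81), of the transcription list 0 of 8 tested were higher and 6 lower (median -0.75) and of S phase genes 3 of 21 tested were higher and 7 lower (median -0.20), beside a median of -0.31 for all genes. Under the 3 other scalings 4 to 8 chaperones and 4 to 6 genes of the transcription list were lower and 0 and 1 higher, and 4 to 7 S phase genes were lower and 4 to 6 higher. NPAT differed by -0.77 ± 0.17 and CDK2 by -1.13 ± 0.23, and the macroH2A gene H2AFY by -3.00 ± 0.23. Of the processing list 1 of 11 tested were higher and 2 lower, of the decay list 1 of 6 tested were higher and 2 lower and of replacement histones 2 of 11 tested were higher and 4 lower.

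No gene of these 6 lists passed in a comparison of hairpins (limma, 0% of all genes called). In t2iGo H1 the summed level of 21 S phase genes was 84.9% of control with pCCNE1 and 104% with uCCNE1, and that of 12 replacement histones 88.4% and 96.7%. In 5iLA H7 S phase genes were at 74.4% of control with pCCNE1 and 63.9% with uCCNE1, and replacement histones at 76.8% and 60.5%. All genes other than members and small RNAs, summed, were at 71.5% of control with pCCNE1 and 67.8% with uCCNE1 in 5iLA H7, and at 90.2% and 99.8% in t2iGo H1. Relative to these other genes the members were at 146% of control with pCCNE1 and 65.4% with uCCNE1 in 5iLA H7, and at 43.0% and 48.5% in t2iGo H1. Across the cultures MCM5 had the largest difference of the S phase list for pCCNE1, at -0.85 ± 0.27 (limma, adjusted p = 0.203), and the linker replacement histone H1F0 that of its list for uCCNE1, at -1.29 ± 0.34 (limma, adjusted p = 0.349).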

How the data were processed

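The authors deposited RPKM values, once per gene, in 2 tables of the same 23287 genes. TopHat2 2.3.0, Cufflinks 1.2.1 and hg19 are named per the submitters' processing notes; what each was used for, its settings and any use of strand were not given in the sources used here. Total RNA was extracted with RNeasy Mini kits, and the TruSeq RNA kit used is of a type not named, per the labels' protocols, so it is unknown whether poly(A) selection was used. Every column was matched to its sample by title. No counts are given, so depth is unknown beyond the estimate from the steps of low RPKM values, and intervals were not computed.

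Values were analysed as log2(RPKM + 1), which understates the change of low genes, for genes with a mean of at least 1 RPKM. R 4.3.3 and limma 3.58.1 with an intensity trend were used over all 9 shRNA libraries with culture and shRNA as terms (4 residual degrees of freedom), and p-values were adjusted over 12116 genes. The limma fit was tested on simulated data for pCCNE1 against control only. Cultures or hairpins stand in for replicates, so a response of 1 culture alone enters the residual. Differences between single libraries were counted past 2-fold with no test. The members and gene lists were chosen with earlier results of these data known. Named in full were the 3 highest members per class, the polyadenylated and testis members, members called (the 5 largest per direction where over 10), the members with the 2 smallest p per hairpin comparison, and list genes with the largest differences. All 71 members matched RefSeq identifiers. Sequences come from RefSeq (GRCh38.p14) and GENCODE (GRCh38), and no coordinate was carried between builds. For 11 members over 50% of 50-base words occur in other histone transcripts, so their reads may be split: HIST1H2AI, HIST1H2AJ, HIST1H2AM, HIST1H4J, HIST1H4K, HIST2H2AA4, HIST2H2BA, HIST2H3A, HIST2H3D, HIST2H4A and HIST2H4B. Histone levels depend on whether messages without a poly(A) tail are captured. Alternatives changed the pseudocount, filter, scaling, model terms and libraries.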

Additional observations from a re-analysis of the deposited data

Results flagged for a closer look

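The members' median difference between pCCNE1 and control had opposite signs in single cultures. It was 0.14 in 5iLA H7 and -1.39 in t2iGo H1, which lie 1.53 apart on the log2 scale, and it was -0.17 in primed H1, which lies 0.30 below 5iLA H7. Each value rests on 1 library a side, and these differences between cultures were not tested.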

How the results depend on the processing

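Of 130 counts of called members under the alternatives, 118 stayed within 1.5 times the value reported, as did 20 of 28 counts past 2-fold. Most of the 130 were counts of hairpin or interaction comparisons that were 0 and stayed 0. The 118 therefore says little of how firm the calls between cultures are, and those for 5iLA against t2iGo moved often. For uCCNE1 against control, 0 members lower became 3 with only the 6 libraries compared and 4 without the t2iGo libraries. For t2iGo against primed, members higher numbered 57 to 61 of those tested, and 2 were lower with no filter. The median of all genes moved from -0.82 to 0.031 under quantile normalization and to 0.20 when rescaled, with the members at 4.71 and 4.74. For 5iLA against t2iGo the members higher were 17 under median-ratio scaling, and the members lower were 2 with a pseudocount of 0.1, with no filter and when rescaled, 1 under quantile normalization and median-ratio scaling and without the uCCNE1 or the control libraries, and 15 without the pCCNE1 libraries. Members' medians turned to 0.020 for pCCNE1 against control without t2iGo, to -0.35 for pCCNE1 against uCCNE1 without 5iLA and to -0.36 for 5iLA against t2iGo without pCCNE1; the cause was not tested. In single pairs, members past 2-fold with a pseudocount of 0.1 were 2 higher with pCCNE1 in 5iLA H7, 1 higher with pCCNE1 in t2iGo H1, and in primed H1 21 lower and 5 higher with pCCNE1 and 10 lower and 14 higher with uCCNE1. When rescaled, 9 were higher with pCCNE1 and 10 lower with uCCNE1 in 5iLA H7. Of 384 results for named members under alternatives, 356 kept their side of the threshold, 24 lost it, 4 gained it and 0 changed sign. The fit on the 6 libraries of the cultures compared and the counts without near-identical members were chosen after seeing the data. No paired analysis was possible because the labels give no replicate numbers to pair libraries by (each group is 1 library); the culture and shRNA terms already compare hairpins within cultures and cultures within hairpins, and without the culture term 0 members passed for either hairpin against control. With 1 library a group, single-culture differences have no error, and levels near 1 read limit primed H1.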
